A study of Caenorhabditis elegans with 2 samples.

Results

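Integrator is a large protein complex that travels with RNA polymerase II, cleaves the nascent transcripts of small nuclear RNA genes and ends transcription early at many protein-coding genes. In human and fly cells its cleavage module holds INTS11, the RNA endonuclease, with its inactive partner INTS9 and the scaffold INTS4, while INTS5 and INTS8 lie in the part that recruits the protein phosphatase PP2A, and INTS7 belongs to the core that holds the modules together. The C. elegans genes carry the matching names, and their roles are given here from those other species.

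The 6 genes described are ints-4, ints-5, ints-7, ints-8, ints-9 and ints-11, out of 19973 protein-coding genes on the nuclear chromosomes. They were selected on measured values, with the summits, signals and ranks of ChIP-seq peaks in these same lists in view, so every peak value given is a description and none is tested. Each gene was taken with 2000 bp upstream of its 5′ end, and every peak summit in that stretch was read from 4 lists. The annotation names 5 further Integrator genes, ints-1, ints-2, ints-3, ints-6 and ints-13, which serve as a comparison.

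The peaks come from whole late embryos of mixed sex of strain OP120, whose genotype is unc-119(ed3) III with the integrated transgene wgIs120 carrying eGFP-tagged ceh-30. CEH-30 is a homeodomain transcription factor known for the survival of male-specific sensory neurons. Both of the 2 biological replicates belong to this 1 group, so all the peaks share the unc-119(ed3) allele and the transgene. No other group was analysed here. The labels give ceh-30 as the antibody, with eGFP as the tag, and a control library that was not analysed here. In whole embryos, signal from few cells and weak signal in many cells cannot be told apart.

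The lists, on assembly ce11, were an optimal list of 545 reproducible peaks, a relaxed list of 30000 peaks from the pooled replicates, and relaxed lists of 30000 peaks for replicate 1 and 17926 for replicate 2. Relaxed lists hold background as well as peaks. All 545 optimal peaks were also the strongest 545 peaks of the pooled list. Being in the optimal list and ranking within 545 in the pooled list are therefore the same fact. The authors' signal per peak ranged from 38.9 to 792 with a median of 48.5 in the optimal list, and its median was 13.5 in the pooled list, 7.70 in replicate 1 and 9.89 in replicate 2. Signal scales differ between lists, so values are compared by rank within a list, where rank 1 is the strongest. No mean or SD of signal over the 2 replicates is formed. Read depth is unknown.

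The 6 stretches of sequence below hold the summits that the results on ints-5, ints-7, ints-9 and ints-11 turn on. They are RefSeq genome sequence of WBcel235 (ce11), written 5′ to 3′ on the strand named, and capitals mark the 11 bases centred on the summit. The first is the intron of ints-9 just upstream of the nested gene ets-6, at chrV:7580547-7580636 on the minus strand, which is the strand of ets-6. The second is the whole gap between ints-9 and its divergent neighbour snu-66, at chrV:7575671-7575801 on the plus strand. The third lies in the gap upstream of ints-11 at chrII:8143663-8143763 on the minus strand, centred on the replicate 2 summit, since the other ints-11 summits near the 5′ end lie in the 5′ UTR. The next pair is from ints-5, upstream at chrV:18533803-18533952 and in a coding exon at chrV:18538922-18539022, both on the plus strand. The last is the whole gap between smc-6 and ints-7, at chrII:11582740-11582848 on the plus strand.
ints-9 intron upstream of ets-6: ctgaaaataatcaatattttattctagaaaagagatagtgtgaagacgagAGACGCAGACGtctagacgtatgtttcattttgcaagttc
ints-9 upstream: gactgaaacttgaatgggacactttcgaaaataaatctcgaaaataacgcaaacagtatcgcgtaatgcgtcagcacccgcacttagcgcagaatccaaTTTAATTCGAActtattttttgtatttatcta
ints-11 upstream: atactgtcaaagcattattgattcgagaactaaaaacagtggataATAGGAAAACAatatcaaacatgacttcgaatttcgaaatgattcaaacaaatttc
ints-5 upstream: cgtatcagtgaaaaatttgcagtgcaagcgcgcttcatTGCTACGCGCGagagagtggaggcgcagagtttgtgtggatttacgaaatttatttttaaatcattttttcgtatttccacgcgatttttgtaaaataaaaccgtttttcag
ints-5 coding exon: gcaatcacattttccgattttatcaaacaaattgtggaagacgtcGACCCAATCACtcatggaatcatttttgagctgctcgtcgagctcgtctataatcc
ints-7 upstream: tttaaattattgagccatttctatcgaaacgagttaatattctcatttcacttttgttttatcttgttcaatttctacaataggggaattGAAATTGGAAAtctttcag

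The short word TAAT, the core of many homeodomain sites, stood in 5 of the 6 stretches on one strand or the other, all but the ints-5 upstream one. It is a common word, found in 66.2% of windows of 90 bp and 72.6% of windows of 109 bp upstream of all protein-coding genes. The marked ints-9 intron summit reads AGACGCAGACG and holds both GACGCA and ACGCAG, which overlap each other in it. The ints-9 upstream gap holds GACGCA on its other strand, outside the capitals, and its marked bases hold TAAT. No word from the set searched (described further on) was found in the ints-5 upstream stretch.

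The ints-4 gene, which encodes the scaffold of the cleavage module, had the strongest peak of the 6 genes. It lies at I:13663352-13674997 on the plus strand and is 11.6 kb long. In the pooled list its strongest summit lay in the 5′ UTR, 33 bp into the gene, and had a signal of 118 and rank 11. In replicate 1 the summit was at 32 bp with a signal of 63.4 and rank 12, and in replicate 2 it was at 60 bp with a signal of 57.5 and rank 22. Both replicate summits lay in the 5′ UTR and both ranked within the strongest 545 of their lists. With a pooled rank within 545, this peak was in the optimal list. Its pooled interval, I:13663379-13663464, was 86 bp wide, the narrowest of that list, in which 535 peaks were 344 bp wide and 10 had another width. All 10 of those ranked 26 or better. Why these widths differ is not stated in the labels.

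The rest of ints-4 held only weak peaks. The pooled list had summits at 3294 bp (signal 14.3, rank 12596) and 7874 bp (signal 14.6, rank 11769), both in introns. Replicate 1 had 7 summits in the gene and replicate 2 had 1, the one at the 5′ end. Of the 6 weak summits of replicate 1, the one at 7904 bp overlapped the pooled peak at 7874 bp. The nearest noncoding gene to the strongest summit, with piRNA genes not counted here or below, was linc-1, 10658 bp away. The upstream neighbour W09C5.12 is on the opposite strand with a gap of 1019 bp, and no list had a summit in that gap.

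The ints-9 gene encodes the partner of the endonuclease and lies at V:7575802-7581532 on the plus strand, 5.73 kb long. The strongest pooled summit was in an intron, 4779 bp into the gene, and had a signal of 27.6 and rank 1336. The 5′ end nearest to that summit belongs to ets-6, a gene of the ETS transcription factor family that lies inside ints-9 on the opposite strand, and the summit was 35 bp upstream of it. Replicate 1 had a peak there with its summit at 4777 bp, a signal of 21.0 and rank 463. Replicate 2 had none there, and its strongest ints-9 peak was at 405 bp with a signal of 10.4 and rank 7510. The replicates therefore differ in where the highest ints-9 signal lay, and 1 of them carries the peak in front of ets-6. Near the ints-9 5′ end the pooled list had 3 weaker summits. The strongest of these, at 249 bp in an intron, had a signal of 19.5 and rank 4224, and overlapped a replicate 1 peak (signal 6.36, rank 23569) and a replicate 2 peak (signal 10.4, rank 7510). The summit at 449 bp, in a coding exon, had a signal of 11.05 and rank 25083 and overlapped the same replicate 2 peak. The summit 27 bp upstream had a signal of 13.2 and rank 15816 and overlapped the same replicate 1 peak. It lies in the gap shared with snu-66, a gene for a splicing factor of the tri-snRNP. The fifth pooled summit of ints-9, at 5643 bp in a coding exon, had a signal of 18.4 and rank 5288, with a peak in replicate 1 only (signal 8.62, rank 10822).

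The ints-11 gene, which encodes the endonuclease itself, is the shortest of the 6 at 2.27 kb and lies at II:8141209-8143478 on the minus strand. Its 1 pooled summit lay in the 5′ UTR at 52 bp and had a signal of 23.7 and rank 2101. Replicate 1 had its strongest summit at 47 bp with a signal of 21.0 and rank 459. In replicate 2 the 1 summit stood on the other side of the 5′ end, at -235 bp, with a signal of 10.6 and rank 6955. The replicate 2 summit was nearer to rpl-10, a large-subunit ribosomal protein gene on the opposite strand, whose 5′ end was 168 bp away across a gap of 402 bp. The 2 replicate peaks overlapped the same pooled peak, the one of replicate 2 by less than 50% of its length.

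The ints-8 gene, which encodes a subunit that contacts PP2A in human cells, lies at I:13455356-13470371 on the minus strand and is 15.0 kb long. Its strongest pooled summit was 6399 bp into the gene, in the optimal peak I:13463800-13464143, which had a signal of 92.2 and rank 27. Replicate 1 had it at 6390 bp with a signal of 43.3 and rank 29, and replicate 2 at 6405 bp with a signal of 51.1 and rank 35. The position is an intron of the longer ints-8 transcript and is also inside rpr-1, the gene for the RNA component of RNase P, which lies on the opposite strand at I:13463955-13464207 and is 253 bp long. The summit was 17 bp from the rpr-1 5′ end in the pooled list, 26 bp in replicate 1 and 11 bp in replicate 2. The 5′ end of the shorter ints-8 transcript was 874 bp upstream of it. Of the 6 genes, ints-8 alone had a noncoding gene other than a piRNA gene within 500 bp of its strongest pooled summit. That is 1 of 6, beside 1518 of the strongest pooled summits of all 14032 genes that have one (10.8%). The share was 11.2% over the 30000 pooled summits (3345) and 35.8% over the 545 optimal summits (195), of which the 6 include only the ints-4 and ints-8 peaks.

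A weaker optimal peak of ints-8 lay at its 5′ end. The summit of the peak I:13470289-13470632 stood 90 bp upstream, with a signal of 41.6 and rank 436, and it overlapped a replicate 1 peak (signal 21.0, rank 460) and a replicate 2 peak (signal 22.7, rank 515). This summit lies in the gap of 220 bp between ints-8 and Y48G10A.3 on the same strand, and 287 bp from the noncoding gene Y48G10A.9. The other 4 pooled summits of ints-8 had signals from 10.3 to 17.4, and each overlapped a peak of 1 replicate only.

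The ints-5 gene, also of the phosphatase part, is the longest at 15.1 kb and lies at V:18533953-18549101 on the plus strand. It had 6 pooled summits spread over its length, at -107, 823, 5019, 6426, 9759 and 14331 bp from the 5′ end, with signals between 15.2 and 23.6. The strongest, at 5019 bp, lay in a coding exon with rank 2162. It overlapped a replicate 1 peak (signal 10.4, rank 5733) and a replicate 2 peak (signal 8.87, rank 12545), whose summit was 134 bp nearer to the 5′ end. Neither replicate had its own strongest ints-5 peak there. Replicate 1 had it at 813 bp in an intron, with a signal of 14.7 and rank 1508. Replicate 2 had it 112 bp upstream, with a signal of 13.7 and rank 2684. The pooled peak at -107 bp (signal 19.5, rank 4266) had no replicate 1 counterpart. The strongest ints-5 summit was thus at a different position in each of the 3 relaxed lists.

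The ints-7 gene, for a core subunit, had the weakest peaks. It lies at II:11582849-11588490 on the plus strand and is 5.64 kb long. Its 1 pooled summit, of signal 11.8 and rank 21490, stood 14 bp upstream in the gap of 109 bp behind smc-6, a gene of the SMC5/6 complex. Replicate 2 had a summit 5 bp into the gene with a signal of 9.36 and rank 10687, and another at 4642 bp with a signal of 7.79 and rank 17824. Replicate 1 had no peak there and a single summit at 1804 bp in an intron, with a signal of 5.76 and rank 28598.

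**Figure D1:**
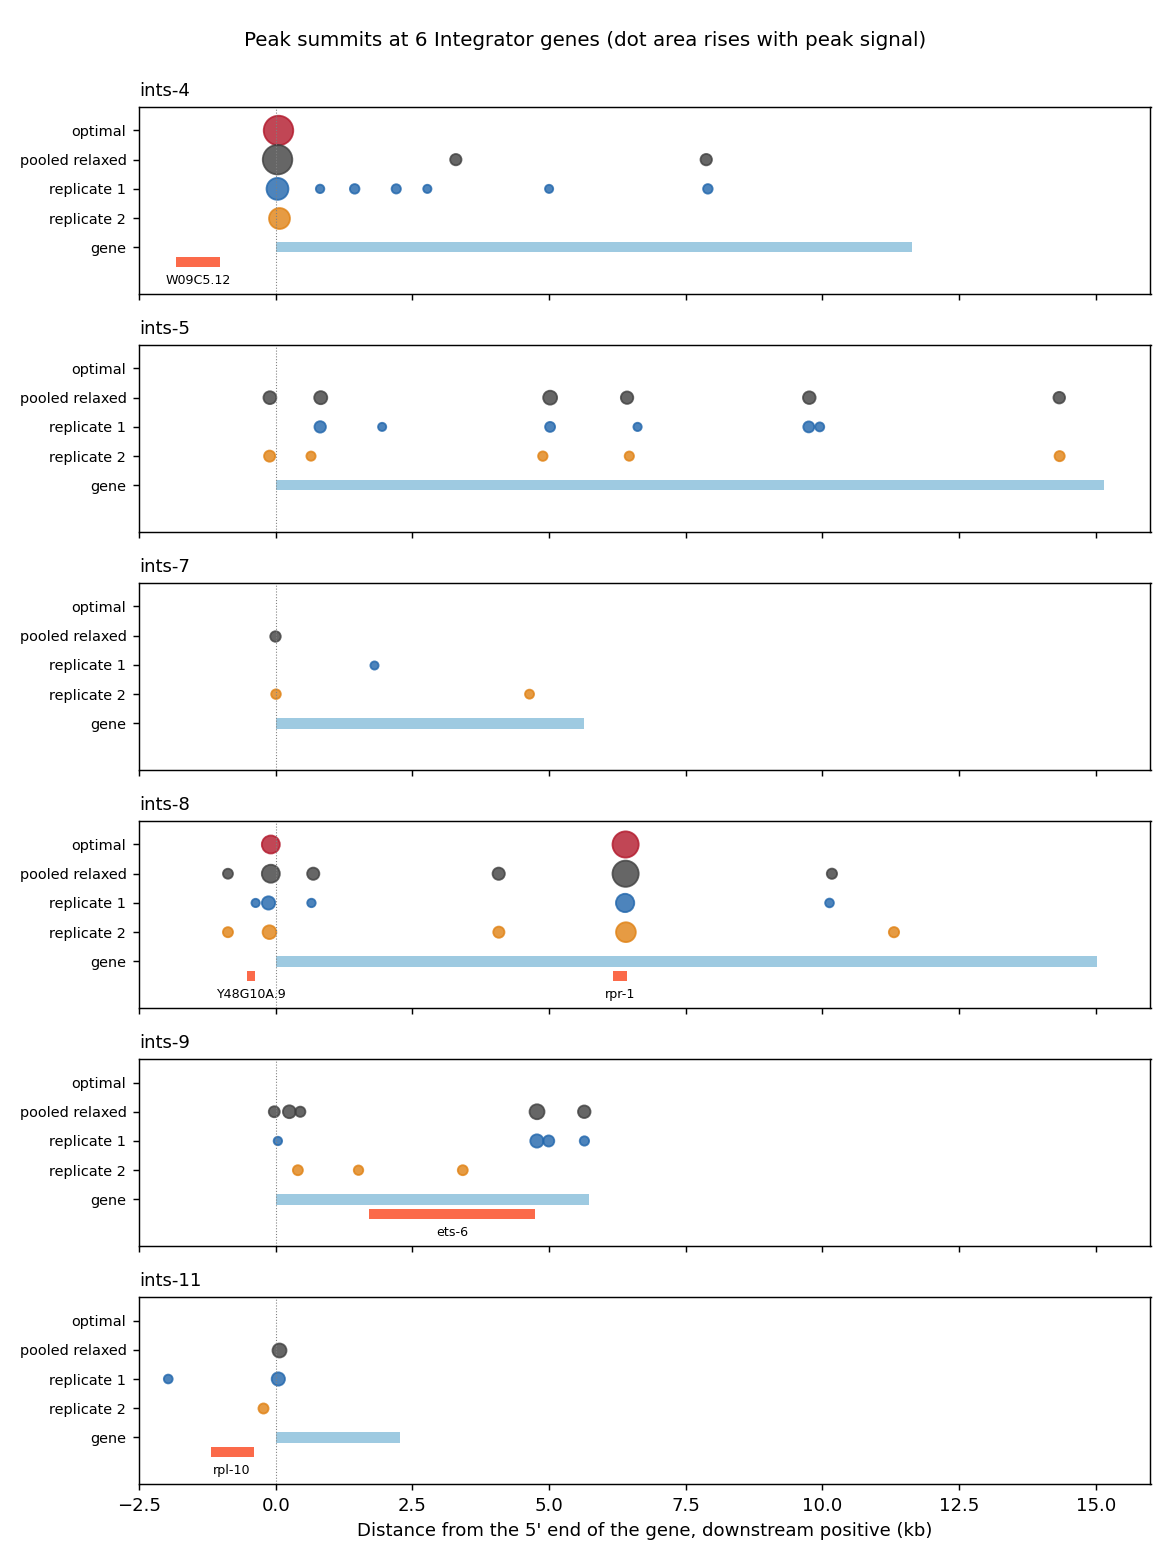
Peak summits of the 4 lists along each of the 6 genes. The horizontal axis is the distance from the gene's 5′ end in kb, with downstream positive. Dot area rises with the authors' peak signal. The blue bar is the gene, and red bars are other genes, except piRNA genes, that lie wholly within the window. The large dots stand at the ints-4 5′ end and at rpr-1 inside ints-8 in every list, with a smaller optimal dot at the ints-8 5′ end, and the other 4 genes have no optimal summit.

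Counted together, the 6 genes held 3 optimal, 22 pooled, 25 replicate 1 and 17 replicate 2 summits. An optimal summit lay in the gene or its 2000 bp upstream for 2 of the 6, ints-4 and ints-8, beside 745 of all 19973 protein-coding genes (3.73%). Since the members were picked on these values, nothing is read from that difference. Long genes offer more room for summits: all 6 were longer than the median protein-coding gene, with a median of 8688.5 bp against 2027 bp. Among genes of at least 5000 bp, a limit added after the data were seen, 2 of 5 members and 194 of 3233 genes (6%) had an optimal summit. Just inside the limit of the optimal list was the 5′ peak of ints-8 at 41.6, and the strongest member outside it was the ints-9 peak at 27.6, with the limit itself at 38.9.

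A relaxed summit was found at all 6 genes, which is common in these lists. The pooled list had one in 6 of 6 members and in 14032 of all genes (70.3%). Both replicates had one somewhere in the gene or upstream for 6 of 6 members and for 9173 of all genes (45.9%). Per kb of gene and upstream sequence the members held 0.131 (ints-7), 0.220 (ints-4), 0.234 (ints-11), 0.350 (ints-5), 0.353 (ints-8) and 0.647 (ints-9) pooled summits. The median over all genes was 0.277, so 3 members were above it and 3 below. The ints-4 gene, with the strongest peak, was among the sparse ones.

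Of the 22 pooled summits of the members, 11 were in introns, 5 upstream, 4 in coding exons and 2 in a 5′ UTR. Over all 32127 pairs of a gene and a pooled summit, 35.5% were in introns, 43.9% upstream, 14.9% in coding exons and 1.95% in a 5′ UTR. The strongest pooled summit lay between 1000 bp upstream and 500 bp downstream of the 5′ end for 3 of 6 members (ints-4, ints-7 and ints-11), and for 45.8% of the 14032 genes with a summit.

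Ranked by the strongest pooled signal, ints-4 was gene 16 and ints-8 gene 41 of the 19973. The ints-8 place rests on the summit inside rpr-1 in each of the 3 relaxed lists. The pooled peak at the ints-8 5′ end had a signal of 41.6. The ints-9, ints-11 and ints-5 genes followed at 1756, 2539 and 2589, and ints-7 at 11926. The median strongest signal over the 14032 genes with a summit was 15.9, and ints-7 was the only member below it. In replicate 1 the gene ranks were 18 for ints-4, 39 for ints-8, 642 for ints-11, 648 for ints-9, 1864 for ints-5 and 13816 for ints-7. In replicate 2 they were 29 for ints-4, 46 for ints-8, 2866 for ints-5, 5981 for ints-11, 6323 for ints-9 and 8087 for ints-7. The order ints-4, then ints-8, and ints-7 last was thus the same in the 3 relaxed lists, while ints-5, ints-9 and ints-11 changed places.

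**Figure D2:**
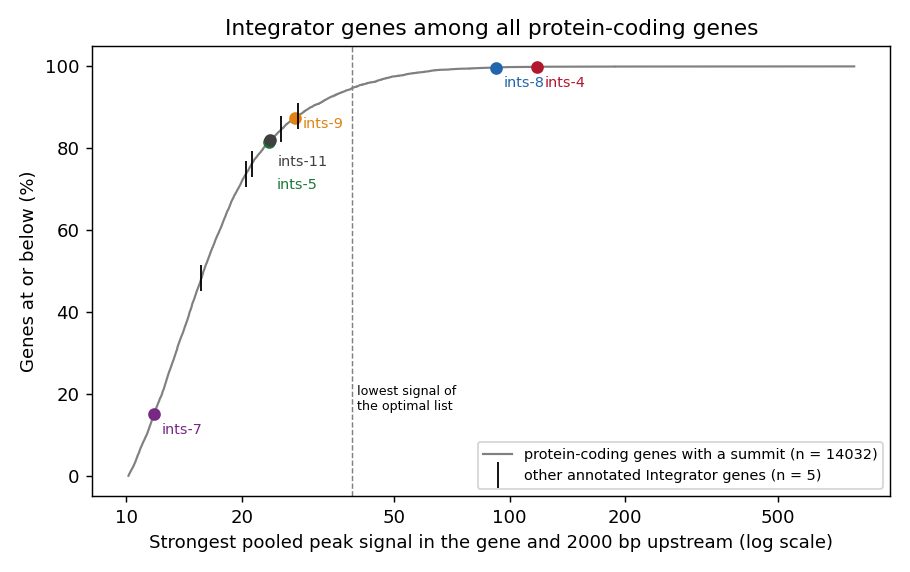
Strongest pooled peak signal (log axis) against the percent of the 14032 protein-coding genes with a pooled summit at or below it, for the 6 Integrator genes (coloured points) and the 5 other annotated Integrator genes (black ticks). The ints-8 and ints-4 genes lie at the upper end at 92.2 and 118, right of the dashed line at the lowest optimal signal of 38.9. The other 9 Integrator genes lie left of it. The ints-8 point is the peak inside rpr-1.

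**Figure D3:**
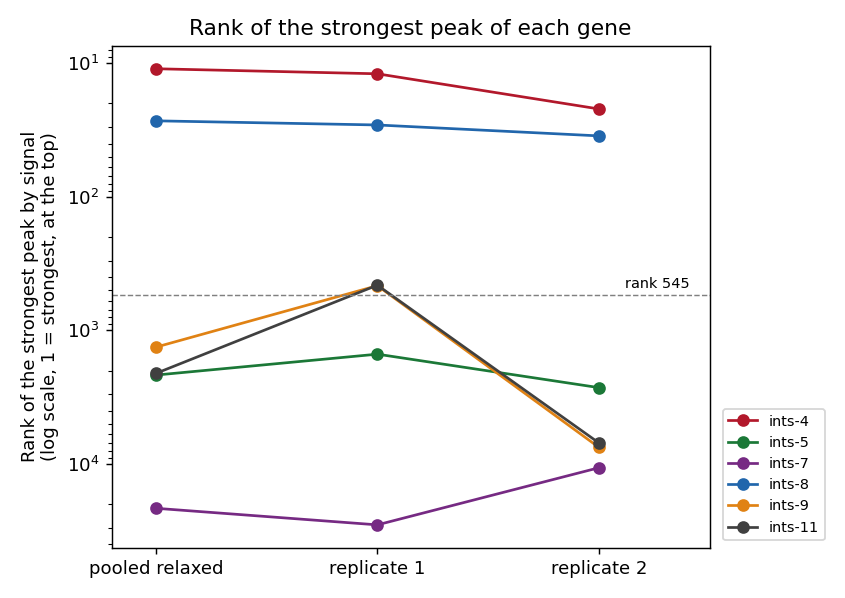
Rank of the strongest peak of each gene by signal (log axis, strongest at the top) in the pooled relaxed list and in each replicate, with a dashed line at rank 545. The ints-4 and ints-8 ranks stay between 11 and 35, those of ints-8 being for the peak inside rpr-1. The ints-9 and ints-11 ranks lie at 463 and 459 in replicate 1 but at 7510 and 6955 in replicate 2.

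The 3 optimal peaks were in both replicates, and most of the weaker ones were not. The optimal peaks were called reproducible and were the strongest 545 of the pooled list, so that contrast is no separate result. Of the 22 pooled peaks, 8 overlapped a relaxed peak of both replicates by at least 1 bp, beside 7296 of all 30000 pooled peaks (24.3%). A further 7 overlapped replicate 1 only, 6 replicate 2 only, and 1, in ints-4, neither. The 8 were the ints-4 5′ peak, both optimal ints-8 peaks, the ints-11 peak, 1 ints-9 peak and 3 ints-5 peaks. The ints-9 peak among them is the one at 249 bp, whose replicate peaks also overlap the pooled peaks on either side of it. When 50% of the pooled peak had to be overlapped in each replicate, several of the 8 dropped out. These were the ints-11 peak, the ints-9 peak and the ints-5 peaks at 823 and 6426 bp. The share of all pooled peaks at that limit was not computed, so nothing is read from 8 of 22 beside 24.3%. The strongest peak was in both replicates for 4 members, ints-4, ints-5, ints-8 and ints-11. It was in replicate 1 only for ints-9 and in replicate 2 only for ints-7. Replicate 2 has the shorter relaxed list, and the part of list length in these differences was not tested.

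**Figure D4:**
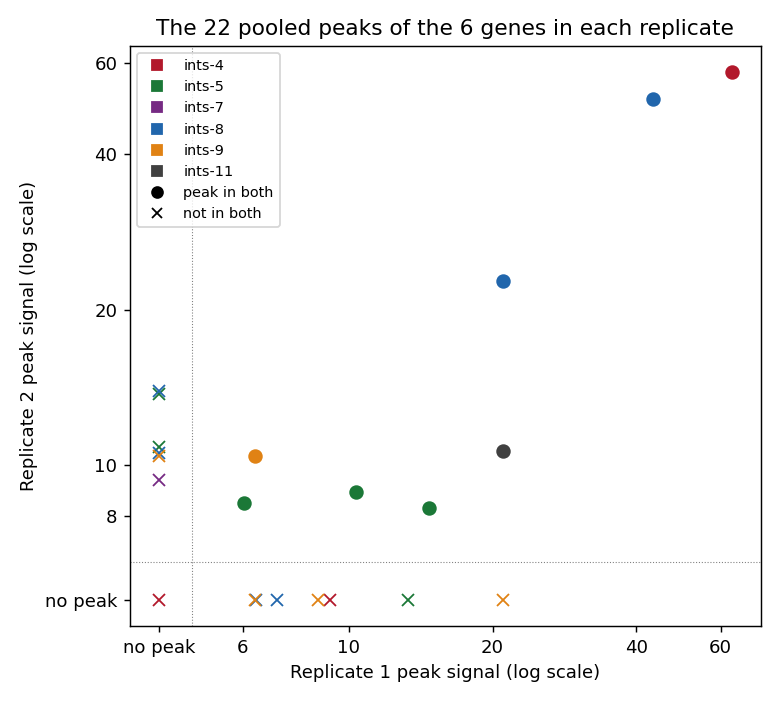
Signal of the replicate 1 peak (horizontal, log axis) and of the replicate 2 peak (vertical, log axis) that overlap each of the 22 pooled peaks of the 6 genes, with crosses in the margins where a replicate has no overlapping peak. The ints-4 and ints-8 optimal peaks form the upper right, at 63.4 and 57.5, 43.3 and 51.1, and 21.0 and 22.7, and 14 of the 22 peaks are not in both replicates.

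The 2 genes with optimal peaks lie on the same chromosome. The 5′ ends of ints-8 and ints-4 are 193 kb apart on chromosome I, and the span covering both genes with their upstream sequence, 220 kb, held 17 of the 545 optimal summits and 5 of the 10 optimal peaks of unusual width. These counts include the 3 optimal summits of the 2 genes themselves and, among the unusual widths, the ints-4 peak. All of chromosome I held 134 optimal summits. The 4 members on other chromosomes had no optimal summit, so chromosome position and optimal signal cannot be told apart with 6 genes.

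Sequence at the strongest summits varied. Within 50 bp of them the G and C content was 57.4% at ints-8, 44.6% at ints-4, 41.6% at ints-5, 35.6% at ints-7 and ints-9 and 31.7% at ints-11, beside a median of 48.5% over the optimal summits. Among these strongest summits only those of ints-4 and ints-8 were optimal, and the median over all pooled summits was not computed. The 5′ peak of ints-8 had 53.5%. All 70 words of 32 bases in each of these windows occurred once in the genome.

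The words were searched on both strands within 50 bp of each strongest summit, taken from an earlier account of the same peaks, in which GACGCA, with the 4 other words listed after it here, had been picked for being frequent at optimal summits. The homeodomain words TAATTG and TAATTA, with TAAACG, were at 0 of the 6 summits, where they were at 3.49%, 2.02% and 2.57% of optimal summits and 7.48%, 4.83% and 3.15% of pooled summits. The core TAAT was at 3 of 6 (ints-5, ints-9 and ints-11), beside 33.4% of optimal and 61.2% of pooled summits. GACGCA and ACGCAG, which share their middle bases, were both at ints-9, beside 18.7% and 17.1% of optimal and 3.6% and 3.48% of pooled summits. CGCGCA and GCGCAC, which also overlap, were both at ints-4, beside 15.6% and 14.9% of optimal and 2.62% and 2.46% of pooled summits. GCGCCA was at none of the 6, beside 14.1% and 2.60%. The ints-7 summit and the ints-8 summit inside rpr-1 held none of the words searched. In the windows of 90 bp upstream of all genes, the length of the ints-9 intron stretch, GACGCA stood in 2.32% and ACGCAG in 2.48%. In windows of 131 bp, the length of the ints-9 gap, GACGCA stood in 3.69%, and TAAT in 78.2%.

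Small nuclear RNAs are the transcripts that Integrator is best known for processing. No gene annotated as small nuclear RNA lay near the 6 genes. The class was used as annotated and includes sls genes. Distances were taken from the 5′ end to the nearest such gene on the same chromosome. They were 98.6 kb for ints-11 (F35C11.9), and 172 kb for ints-8 and 365 kb for ints-4 (both sls-2.9). The others were 433 kb for ints-9 (F10D2.13), 1362 kb for ints-7 (sup-6) and 1402 kb for ints-5 (sls-1.1).

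The 5 other annotated Integrator genes had weaker peaks than ints-4 and ints-8, whose strongest peak is the one inside rpr-1. Since the members were picked with their signals in view, nothing is read from that difference. None had an optimal summit and all 5 had a pooled one. The strongest was at ints-1, which encodes the largest core subunit, with its summit 83 bp upstream, a signal of 28.0 and rank 1290, from a replicate 1 peak at rank 915 and a replicate 2 peak at rank 8269. The other strongest signals were 25.4 at ints-3, 21.2 at ints-2, 20.5 at ints-13 and 15.7 at ints-6. These values overlap those of ints-5, ints-9 and ints-11, which ran from 23.6 to 27.6.

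Genes that work beside Integrator were taken from 4 further lists, none of them tested. Among 14 genes of cleavage and polyadenylation, 2 had an optimal summit and 14 a pooled one, with a median strongest signal of 20.8. These were cfim-2, for a subunit of cleavage factor Im (signal 59.9, rank 135, 917 bp downstream in an intron and inside the noncoding gene D1046.11), and cpf-2, for a cleavage stimulation factor subunit (signal 52.2, rank 217, 128 bp upstream). Both ranked within the strongest 545 of replicate 2, at 74 and 100, and outside it in replicate 1, at 850 and 2032. The relatives of the Integrator endonuclease pair in that machinery, cpsf-3 and cpsf-2, had 22.4 and 13.9. Among 7 genes named for SNAPc, the complex that starts small nuclear RNA transcription, 0 had an optimal summit and 5 a pooled one, led by snpc-3.4 (signal 34.6, rank 745, 10 bp upstream) and snpc-4 (signal 23.0).

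Among 11 genes for Sm proteins and their assembly, 1 had an optimal summit and 8 a pooled one. That gene was snr-2 (signal 39.8, rank 503, 291 bp upstream), and the 5′ end nearest to the summit was that of W08E3.4. Among 9 genes for elongation and phosphatase partners, 1 had an optimal summit and 7 a pooled one. That gene was cdk-9, for the kinase of the elongation factor P-TEFb (signal 39.2, rank 526, 152 bp upstream). The PP2A catalytic and scaffold genes let-92 and paa-1 had strongest signals of 27.5 and 20.8. Both summits lay upstream and nearer to the 5′ end of another gene, and the let-92 one was inside a noncoding gene. Neither peak overlapped a replicate 2 peak. Over the 5 lists, 4 of 46 genes had an optimal summit and 39 a pooled one, beside the 3.73% and 70.3% of all genes given above. Some genes of a list share a summit, as cpf-1 and suf-1 do, and cit-1.1 and cit-1.2.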

How the data were processed

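Chromatin immunoprecipitation and sequencing of eGFP-tagged CEH-30 gave peak lists for 2 replicates. Relaxed lists were called with a control alignment for each replicate and for the pool, per the deposited descriptions, and the irreproducible discovery rate (IDR) procedure made the optimal list from them. Each deposited peak has a signal value from the authors' peak caller, used here to rank peaks within a list. The names of the caller and aligner, and the threshold of the IDR step, were not given in the sources used here, and read depth is unknown.

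The ce11 lists were set against Ensembl release 115 genes of WBcel235, in 1-based coordinates, with Python 3.11.15, pandas 2.3.3, NumPy 2.4.6 and matplotlib 3.10.9. A summit was given to every gene that holds it or has it within 2000 bp upstream. This assignment was checked on simulated summits. Peaks matched between lists when they overlapped by at least 1 bp, taking the strongest. Noncoding genes were those annotated as tRNA, snoRNA, snRNA, miRNA, rRNA, ncRNA, lincRNA or antisense RNA, and piRNA genes were left out. Words were searched in RefSeq sequence of the same build.

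The members and gene lists were chosen with earlier results of these data known, so no test was run. The text names the 6 members with their summits, genes that share a summit or promoter with them, the nearest noncoding gene, and up to 4 genes with an optimal summit from each related list. Genes of those lists without an optimal summit were named after their values were seen. Alternatives changed the window, list threshold, assignment, replicate, assembly (ce10), overlap and noncoding distance.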

Additional observations from a re-analysis of the deposited data

How the results depend on the processing

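The count of members with an optimal summit, 2, was the same with 1000 or 500 bp upstream, a window of 1000 bp before and 500 bp after the 5′ end, the strongest 272 optimal peaks, the nearest 5′ end only and the ce10 list. It ran from 2 to 4 over the strongest 545 peaks of 1 replicate, with 2 without replicate 1 and 4 without replicate 2, when ints-9 and ints-11 joined. The share of all genes with an optimal summit, 3.73%, was 6% among genes of at least 5000 bp, an alternative added after the data were seen. The strongest peak was in both replicates for 4 members, for 3 when 50% of the pooled peak had to be overlapped, and for 2 within the strongest 545 peaks of each replicate. The 1 member with a noncoding gene nearby was the same at 200, 1000 and 2000 bp.

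The strongest summit changed sides of the 5′ end for 3 members. It was at 5019 bp for ints-5, against -112 bp without replicate 1 and 813 bp without replicate 2. It was at -14 bp for ints-7, against 1804 bp without replicate 2. Without replicate 1 it was at 5 bp, a shift of only 19 bp between overlapping peaks. It was at 52 bp for ints-11, against -235 bp without replicate 1 and 47 bp without replicate 2. The cause was not tested. Each rank or position without a replicate is the other replicate's own value. Of 24 such values, 4 changed sign, 12 others differed from the pooled value by at most 1 SD of the 2 replicates and 8 by more. That SD is wide where the replicates differ, so the 12 include shifts of several fold. No paired analysis was possible because both replicates form 1 group and no test was run. With 2 replicates and no read counts, a gene without a peak cannot be called unbound.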
